A study of Mus musculus with 4 samples.

Results

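The Ms4a genes encode small proteins that cross the membrane repeatedly, and most of them lie side by side on mouse chromosome 19. The 8 genes described here are Ms4a1, Ms4a4b, Ms4a4c, Ms4a4d, Ms4a6b, Ms4a6c, Ms4a6d and Ms4a7. Every probe set whose only gene symbol in the platform annotation was one of these 8 was taken, giving 16 of 45037 non-control probe sets and 8 of 18193 genes. The annotation of GRCm38.p6 used here listed 21 Ms4a genes, of which 17 had such a probe set on the array. Ms4a4a, Ms4a5, Ms4a12 and Ms4a14 were not analysed here. The other 9 measured Ms4a genes served as the nearest comparison. The family was chosen on this same comparison, in which the differences of Ms4a6b and Ms4a4b were already known, so values of the 8 genes between treatments are given as a description. No p-value is given for them, and counts of those among the called genes are printed only beside the share of all genes called.

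RNA came from T29, a mouse line established from a thymic lymphoma, in 2 groups of 2 arrays. One group received DMSO, the solvent, and the other MRK003, a gamma-secretase inhibitor (GSI) that the labels give at 5 mM for 36 h. The treatment text is the same for all 4 samples, so groups follow the sample titles, and the unit of the dose could not be checked. The labels do not say whether the 2 arrays of a group came from separate cultures. The p-values therefore rest on how far arrays of a group lie apart, for the gene itself and, through limma, over all genes. That spread may be technical.

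Gamma-secretase cuts membrane proteins, Notch receptors among them, and frees the part of Notch that acts in the nucleus. Proteins of the Ms4a family share a core of membrane-spanning segments with both ends inside the cell, and many associate with signalling receptors. Ms4a1 is CD20 of B cells, Ms4a2 is the beta chain of the high-affinity IgE receptor of mast cells and basophils, and Ms4a4b and Ms4a6b are known in T cells, where their proteins associate with the costimulatory receptor GITR. Ms4a7, Ms4a6d and Ms4a6c are best known from monocytes and macrophages.

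The promoters of 6 of the 8 genes were in the RefSeq promoter table for GRCm38.p6. They are shown for the pairs that resemble each other most, Ms4a6b with Ms4a6c and Ms4a4b with Ms4a4c, because the members of each pair differ in how they behaved on the arrays. Each line is the 250 bases before the transcript start given in that table, plus strand, 5′ to 3′, and capitals mark the longest run that the pair has in common. The windows are chr19:11518309-11518558 for Ms4a6b, chr19:11469118-11469367 for Ms4a6c, chr19:11443308-11443557 for Ms4a4b and chr19:11407411-11407660 for Ms4a4c. For Ms4a6b and Ms4a4b this start is the first base of the gene in the annotation. For Ms4a6c and Ms4a4c it lies inside the annotated gene, which spans chr19:11469353-11487182 and chr19:11404717-11427246, so the end of the Ms4a6c window and all of the Ms4a4c window are within the gene.
Ms4a6b: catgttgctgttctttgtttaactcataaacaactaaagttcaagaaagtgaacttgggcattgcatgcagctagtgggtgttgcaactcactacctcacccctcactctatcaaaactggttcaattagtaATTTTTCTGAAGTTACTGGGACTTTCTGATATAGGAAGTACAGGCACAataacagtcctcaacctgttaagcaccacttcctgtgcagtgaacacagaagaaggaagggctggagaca
Ms4a6c: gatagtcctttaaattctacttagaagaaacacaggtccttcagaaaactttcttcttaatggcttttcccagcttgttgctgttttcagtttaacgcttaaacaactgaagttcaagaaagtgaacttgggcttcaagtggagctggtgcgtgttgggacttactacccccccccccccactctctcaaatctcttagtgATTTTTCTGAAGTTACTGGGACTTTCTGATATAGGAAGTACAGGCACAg
Ms4a4b: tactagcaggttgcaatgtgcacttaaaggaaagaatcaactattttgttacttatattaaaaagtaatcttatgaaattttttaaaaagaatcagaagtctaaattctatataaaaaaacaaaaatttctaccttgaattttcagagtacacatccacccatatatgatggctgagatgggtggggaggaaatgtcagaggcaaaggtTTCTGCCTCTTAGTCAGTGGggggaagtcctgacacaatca
Ms4a4c: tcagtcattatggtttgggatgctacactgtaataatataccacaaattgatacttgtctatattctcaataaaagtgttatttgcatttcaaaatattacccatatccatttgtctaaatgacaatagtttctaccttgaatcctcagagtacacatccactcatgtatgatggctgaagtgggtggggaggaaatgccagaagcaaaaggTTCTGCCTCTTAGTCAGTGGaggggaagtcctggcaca

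In a pairwise alignment Ms4a6c and Ms4a6b had 149 identical bases of 175 aligned (85.1%), and a run of 48 bases was the same in both. The last base of that run is the 2nd before the table's start of Ms4a6c and the 71st before that of Ms4a6b. These distances hold for the starts in the table, and the Ms4a6c run ends inside the annotated gene. Ms4a4c and Ms4a4b had 183 identical bases of 232 aligned (78.9%), with a longest shared run of 20 bases. The other 19 pairs of member promoters had 1 to 63 identical bases and no shared run over 9 bases.

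Motifs were searched in these windows on both strands. TGGGAA, the core bound by the Notch partner RBPJ, was found upstream of Ms4a6c and in none of the other 6 windows of member genes, against 21.6% of all 32851 promoters of the same length. GAAANNGAA, a form of the element bound by interferon regulatory factors that was chosen after the sequences were seen, occurred upstream of Ms4a6b, Ms4a6c and both starts of Ms4a7, against 7.13% of all promoters. The match was gaaagtgaa in both Ms4a6b and Ms4a6c, whose windows resemble each other. These windows are therefore not independent, and nothing is read from the share. TGTGGT (RUNX) was found for Ms4a4c, TGANTCA (AP-1) for 1 start of Ms4a7 and TATAAA for Ms4a4b, against 14.0%, 6.75% and 12.4% of all promoters. The PU.1 motif GAGGAAGT was in none of the 7 windows, against 2.44% of all promoters. The motif AGATAA, bound by factors of the GATA family, was in none either, against 9.99%. The motifs do not contain one another. A match is a string of letters and not a measured binding site.

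Values below are those deposited by the authors, on the log2 scale of RMA, a method that removes background signal, brings arrays to a common distribution and combines the probes of each probe set. The level of a probe set depends on its probes, so levels of different genes are not compared. To show how low a dim probe set reads, the 44 probe sets of olfactory receptors, genes of olfactory neurons, had a median level of 3.51 and a 5th to 95th percentile of 2.67 to 4.67. Their differences between GSI and DMSO had a 5th to 95th percentile of -0.24 to 0.24. Of the 16 Ms4a probe sets, 13 had means below 4.88, the median of all values, in both groups.

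Markers of the labelled lineage were bright, and Notch receptors and targets differed between the treatments. The mean levels of 11 T lineage markers were 9.85 and 9.91 with DMSO and 10.10 on both arrays with GSI, and none of the 11 lay below the median of all values. All 8 genes of the treatment check were lower with GSI (limma, adjusted p under 0.05), against 1.56% of all genes. The list was chosen with earlier results of these data known, so this count is no independent check. When every probe set was tested, Notch1 and Myc of this list were not called (limma, adjusted p = 0.0694 and 0.0719). The largest falls were Dtx1 (-3.53), Il2ra (-2.87), Nrarp (-2.42) and Hes1 (-2.26). Calls in these data rest on all 4 arrays. In place of 466 genes higher and 284 lower, limma called 1 and 5 when either DMSO array was left out, and 0 in both directions when either GSI array was. Nearly all of the calls given here were lost when either DMSO array was left out, and all of them when either GSI array was.

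Ms4a6b was the member with the highest difference. Its brighter probe set (1418826_at) read 6.79 and 6.52 with DMSO and 9.27 and 8.85 with GSI. Both GSI arrays lay above both DMSO arrays by at least 2.06. The group means were 6.65 ± 0.19 and 9.06 ± 0.30 (SD, n = 2), a difference of 2.40 with an SE of 0.17, or 5.29-fold. The gene lies at chr19:11518559-11530403 (GRCm38.p6), and its protein belongs to the group known from T cells.

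A second, dimmer Ms4a6b probe set (1439956_at) was also higher on both GSI arrays. It read 3.37 and 2.85 with DMSO, inside the range of the olfactory receptor probe sets, and 5.63 and 5.54 with GSI, above it. The difference was 2.48 (SE 0.18), a size that is uncertain because the DMSO values are dim. On both probe sets replicate 1 read higher than replicate 2 within each group, by 0.09 to 0.52.

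For Ms4a4b, whose product is a surface protein of T cells, the 2 probe sets disagreed. The brighter (1423467_at) read 4.19 and 4.12 with DMSO and 5.94 and 5.76 with GSI. Those GSI arrays stood at least 1.57 above the DMSO arrays, and the difference was 1.70 (SE 0.10), or 3.24-fold. The DMSO values lie within the olfactory receptor range and the GSI values above it, so the size of this fold is uncertain. The dimmer (1425325_at) read 3.24 and 3.43 with DMSO and 3.35 and 3.04 with GSI, so the groups overlapped (difference -0.14, SE 0.14). All 4 of these values lie within the olfactory receptor range. With the mean of its probe sets standing for the gene, the difference of Ms4a4b was 0.78. The gene lies at chr19:11443558-11463549.

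Ms4a6d, known from macrophages, had 3 probe sets. The one with the highest mean (1419599_s_at) read 3.99 and 3.64 with DMSO and 4.63 and 4.99 with GSI, a difference of 1.00 (SE 0.17), or 1.99-fold, with no overlap between groups. Its suffix _s_at marks probes that can bind more than 1 transcript, so related family transcripts may contribute. The second (1419598_at), without that suffix, read 2.61 and 2.54 with DMSO and 3.54 and 3.74 with GSI (difference 1.07, SE 0.11). It too separated the groups. The third (1449539_at) stayed between 2.17 and 2.24 on all 4 arrays, the lowest range of any member probe set. The DMSO values of all 3 lie within the olfactory receptor range or below it. With GSI only the 4.99 of the first probe set lay above that range, so the size of these folds is uncertain. Ms4a6d lies at chr19:11586606-11604804.

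Ms4a6c, the relative of Ms4a6b with the similar promoter, differed far less. Its brighter probe set read 3.92 and 4.11 with DMSO and 4.63 and 4.15 with GSI. The lower GSI array exceeded the higher DMSO array by 0.04, and the difference of 0.37 (SE 0.17) was smaller than the gap of 0.48 between the GSI arrays. The other probe set read 3.67 and 3.74 with DMSO and 3.71 and 3.85 with GSI, with overlapping groups. All values of both Ms4a6c probe sets lie within the olfactory receptor range.

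Ms4a4c, the relative of Ms4a4b, did not show the rise of the brighter Ms4a4b probe set. Ms4a4c read 3.67 and 3.80 with DMSO and 3.58 and 3.52 with GSI on its brighter probe set, a difference of -0.19 (SE 0.09). That probe set carries the suffix _x_at and the other _s_at, both of which mark possible binding of related transcripts. The dimmer one lay between 2.29 and 2.43 on all arrays, with overlapping groups. Ms4a4d, a further member of the subgroup, read 3.10 and 3.05 with DMSO and 3.03 and 3.32 with GSI on its single probe set, and its groups overlapped. All values of Ms4a4c and Ms4a4d lie within the olfactory receptor range or below it, so a difference could go unseen.

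The remaining members, markers of other lineages, were dim in both groups. Ms4a1, encoding CD20, read 3.74 and 3.75 with DMSO and 3.55 on both GSI arrays (difference -0.19, SE 0.08), and its dimmer probe set differed by -0.22 (SE 0.10). Ms4a7, a gene of macrophages, read 4.40 and 4.13 with DMSO and 3.92 and 4.03 with GSI (difference -0.29, SE 0.12), and its other probe set had overlapping groups. These 2 genes lay within the olfactory receptor range or below it on every array and probe set.

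**Figure D1:**
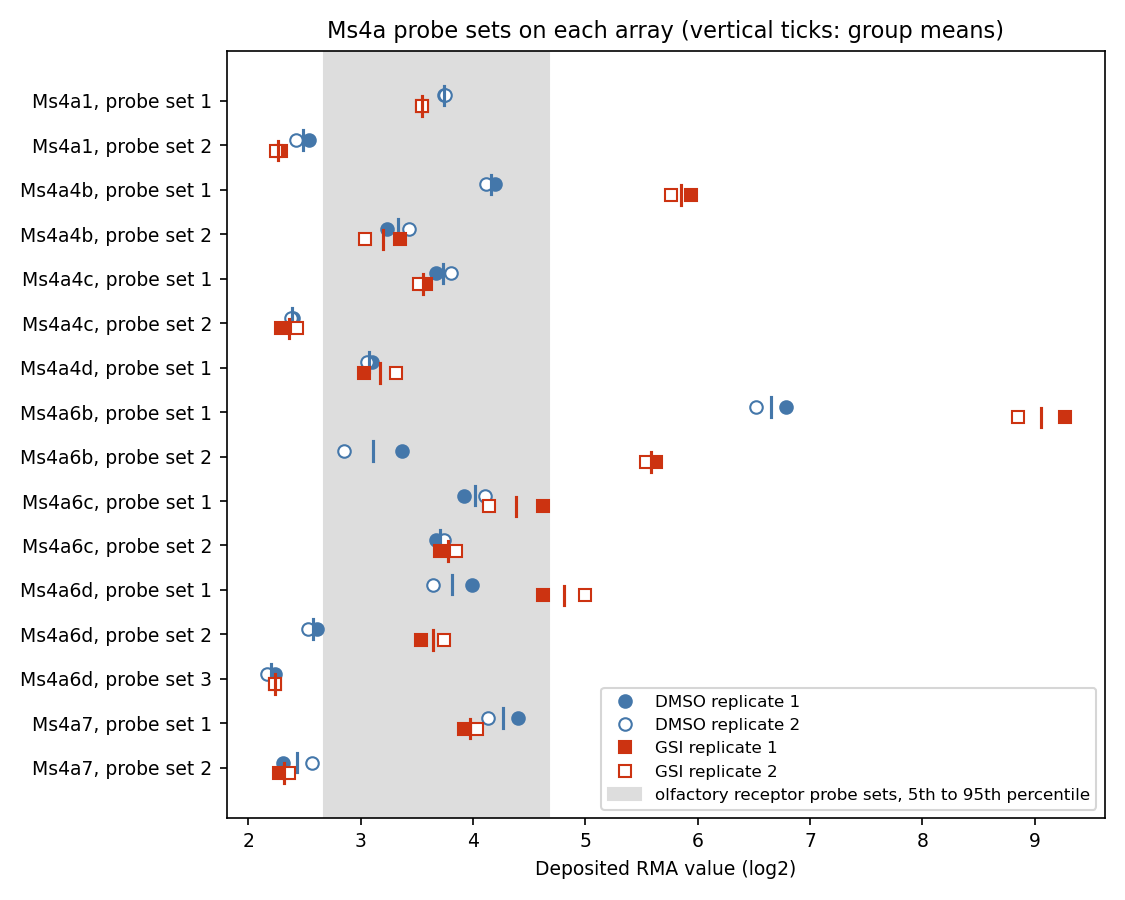
Deposited RMA values (log2, horizontal axis) of the 16 Ms4a probe sets on the 4 arrays, numbered within a gene from the highest mean, with DMSO as blue circles, GSI as red squares, replicate 1 filled and replicate 2 open, vertical ticks for group means and a grey band for the 5th to 95th percentile of olfactory receptor probe sets. The groups stand clearly apart for both Ms4a6b probe sets, for 1 of 2 Ms4a4b probe sets and for 2 of 3 Ms4a6d probe sets. The other probe sets stay in or below the band, as do the values of these Ms4a6d probe sets except 4.99 with GSI.

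Across the family, 5 of the 8 genes had a higher mean with GSI and 3 a lower one, against 47.0% of all genes with a higher mean. The median difference of the 8 was 0.24 on the log2 scale, against -0.01 over all 18193 genes. Both GSI arrays lay above both DMSO arrays for 4 of the 8 genes, against 23.7% of all genes, and below for 3 of the 8, against 27.7%. In the limma fit over all genes, 3 members, Ms4a6b, Ms4a4b and Ms4a6d, were among the genes called higher, which made up 2.56% of all genes, and 0 were called lower (1.56% of all genes). Tested probe set by probe set, 4 of the 16 were called higher (0.948% of all probe sets) and 0 lower (0.446%). The probe set standing for Ms4a6d was not among these 4. Both GSI arrays lay above both DMSO arrays for 6 of the 16, against 21.3% of all probe sets, and below for 4, against 25.2%. Because the family was chosen with this contrast in view, nothing is read from these counts.

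**Figure D2:**
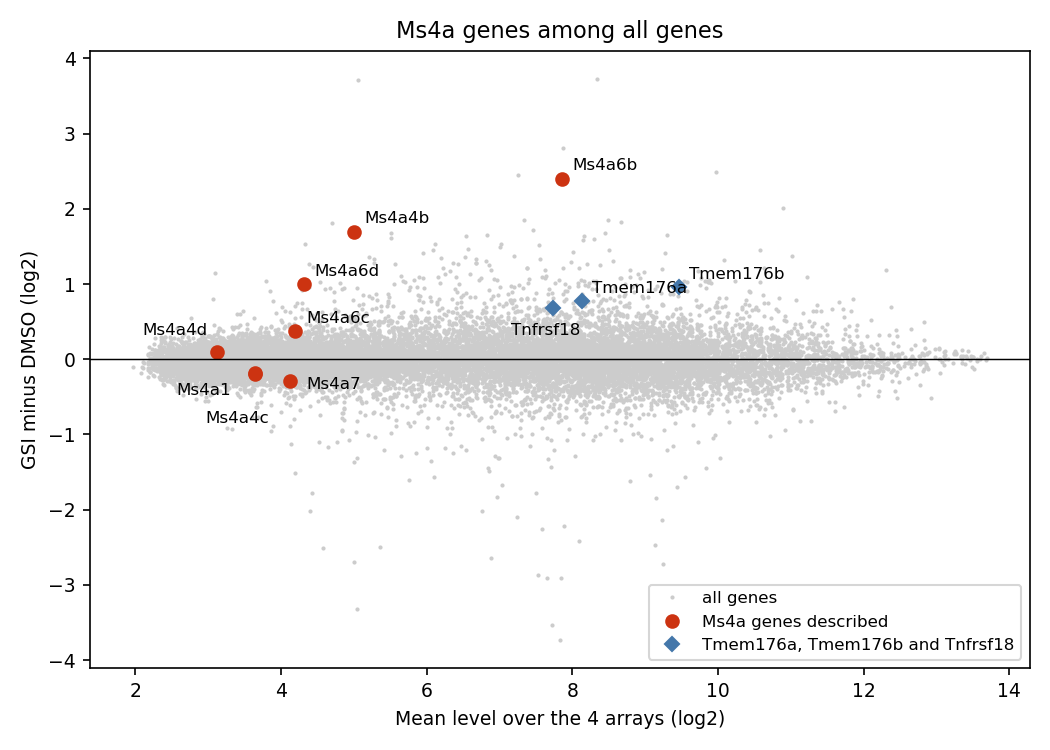
GSI minus DMSO (log2, vertical axis) against the mean level over the 4 arrays (log2, horizontal axis) for 18193 genes (grey), with the 8 Ms4a genes in red and Tmem176a, Tmem176b and Tnfrsf18 in blue, each gene shown by its brightest probe set. Ms4a6b at 2.40, Ms4a4b at 1.70 and Ms4a6d at 1.00 lie above the bulk of genes, and Ms4a1, Ms4a4c, Ms4a4d and Ms4a7 lie between -0.29 and 0.10 at low levels.

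Genes were compared by their centred profile over the 4 arrays, with unnamed gene models and olfactory receptor genes left out. The nearest to Ms4a6b were Lztfl1, Maf, Lgals1, Cpa3 and Cyp11a1, at Euclidean distances of 0.09 to 0.60. For Ms4a4b they were Rgs2, Trav9d-3, Papss2, Cyp11a1 and Emp3, at 0.13 to 0.17. The distance between Ms4a6b and Ms4a4b themselves was 0.74. With 2 arrays a group, this measure rests mainly on the size of the difference between treatments.

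In the gene order of GRCm38.p6, Ms4a4b, Ms4a6c, Ms4a6b, Ms4a4d and Ms4a6d follow each other, with Gm8369 between Ms4a6c and Ms4a6b. The differences along this row, by brightest probe set, were 1.70, 0.37, -0.34 for Gm8369, 2.40, 0.10 and 1.00. Large and small differences thus lay side by side. The dimmer Ms4a4b probe set gave -0.14. Ms4a6c and Ms4a4d lay within the olfactory receptor range on every array, where a difference could go unseen. Gm8369 read at most 2.87 on any array and was not called (limma, adjusted p = 0.188). Beyond this row, Ms4a4c and Ms4a7 on one side had differences of -0.19 and -0.29, and Ms4a2 and Ms4a3 on the other -0.09 and 0.29.

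The genes around the cluster were not part of the choice and were tested. Of 31 neighbours, namely 15 protein-coding genes on each side and Gm8369, 24 were measured. By limma 0 were called in either direction, against 2.56% of all genes called higher and 1.56% lower. At unadjusted p-values under 0.05, 2 were higher and 4 lower, against 1960 and 1954 of all 18193 genes. Their median difference was -0.09, against -0.01 over all genes. Their differences ran from -0.44 to 0.44. The extremes, named here after their values were seen, were Ccdc86, a nucleolar protein gene (difference -0.44, adjusted p = 0.0616), and Cd5, encoding an inhibitory receptor of T cells (0.44, adjusted p = 0.0849). Ccdc86 was called lower when dim genes were left out (adjusted p = 0.0265) and when the prior was robust and followed the intensity (adjusted p = 0.0164).

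**Figure D3:**
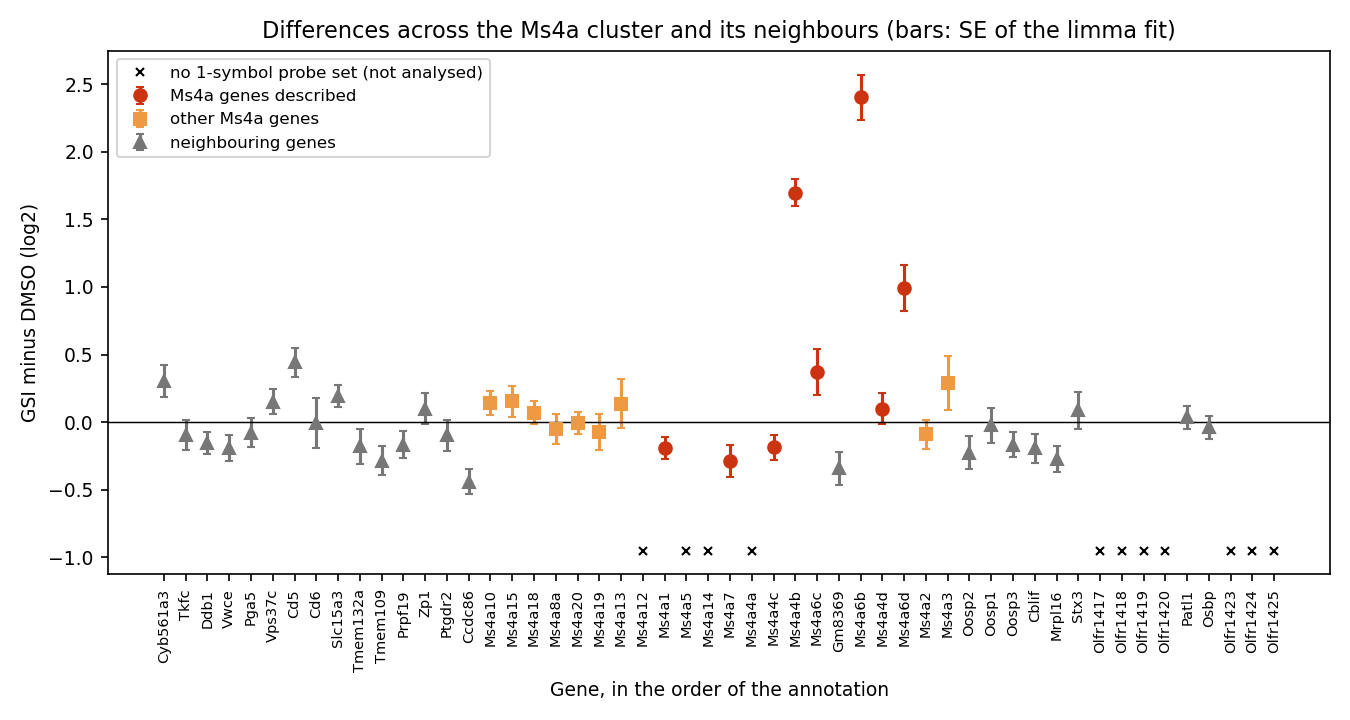
GSI minus DMSO (log2, vertical axis; bars are the SE of the limma fit) for the Ms4a genes and 15 protein-coding neighbours on each side, in gene order (horizontal axis), with the 8 described Ms4a genes in red, the other Ms4a genes in orange, neighbours in grey and genes without a usable probe set as crosses. Ms4a4b, Ms4a6b and Ms4a6d stand at 1.70, 2.40 and 1.00, while the measured neighbours lie between -0.44 and 0.44.

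Among other Ms4a genes and relatives, limma called 2 of 11 measured genes higher and 0 lower, against 2.56% and 1.56% of all genes. At unadjusted p under 0.05, 2 were higher and 0 lower, against 1960 and 1954 of all 18193 genes. The list's median difference was 0.14. Both calls were Tmem176a and Tmem176b, related tetraspan genes that lie elsewhere in the genome. Tmem176b read 9.17 and 8.79 with DMSO and 10.11 and 9.78 with GSI, a rise of 0.96 (SE 0.17; limma, adjusted p = 0.0424). Tmem176a read 7.89 and 7.59 with DMSO and 8.56 and 8.47 with GSI, a rise of 0.77 (SE 0.12; limma, adjusted p = 0.0338). Both GSI arrays exceeded both DMSO arrays for each, and on all 3 probe sets of Tmem176a. Neither was called in the fit over all probe sets (adjusted p = 0.0722 for Tmem176b and 0.0602 for Tmem176a). With 1 array left out, the adjusted p lay between 0.148 and 0.310 for Tmem176b and between 0.119 and 0.296 for Tmem176a.

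The 9 other Ms4a genes were not called. By their brightest probe sets, their differences ran from -0.09 for Ms4a2, the IgE receptor chain, to 0.29 for Ms4a3, a gene of myeloid progenitors. Ms4a2 read between 3.15 and 3.40 on its brighter probe set, with overlapping groups. Its dimmer probe set read 2.69 and 2.61 with DMSO and 2.95 and 2.82 with GSI, a difference of 0.24 with no overlap, and was not called in the fit over all probe sets (limma, adjusted p = 0.324). Ms4a10 (0.14), Ms4a13 (0.14), Ms4a15 (0.16), Ms4a18 (0.07), Ms4a19 (-0.07), Ms4a20 (-0.01) and Ms4a8a (-0.05) lay between these, as log2 differences. Ms4a15 was the only one of the 9 above the median of all values, at 5.88 to 6.23.

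Of 4 genes for partners of Ms4a proteins, limma called 1 higher, against 2.56% of all genes, and 0 lower (1.56%). Tnfrsf18, encoding GITR, read 7.44 and 7.34 with DMSO and 8.12 and 8.04 with GSI. Both GSI arrays were higher, by a difference of 0.69 (SE 0.09; limma, adjusted p = 0.0195), or 1.61-fold. With 1 array left out, the adjusted p lay between 0.128 and 0.231. The IgE receptor chains Fcer1a (-0.10) and Fcer1g (0.04) and Clec7a, encoding the receptor Dectin-1 (0.08), were not called.

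Cell types in which Ms4a genes are best known were checked through their other markers. For comparison, limma called 2.56% of all genes higher and 1.56% lower. At unadjusted p under 0.05 it found 1960 of 18193 genes higher and 1954 lower. Of 9 measured B cell markers 0 were called by limma (1 higher and 0 lower before adjustment, at p under 0.05), their median difference was -0.02, and their mean level was 4.08 and 4.14 with DMSO and 4.15 and 4.09 with GSI. Of 11 monocyte and macrophage markers 0 were called (1 higher and 0 lower before adjustment, at p under 0.05), with a median of 0.06 and mean levels of 4.26 and 4.25 with DMSO and 4.40 and 4.32 with GSI. In both groups 7 of the 9 B cell markers and 8 of the 11 monocyte and macrophage markers lay below the median of all values. The 1 higher was Itgam, at 3.45 and 3.08 with DMSO and 4.59 and 4.04 with GSI (adjusted p = 0.0561), named after its values were seen. The complement genes C1qa, C1qb and C1qc lay between 2.79 and 4.07 on every array, within the dim range. Other markers of the list lay above that range. Cd14 read 6.33 and 6.28 with DMSO and 6.01 and 6.17 with GSI. Csf1r read 5.53 and 5.66 with DMSO and 5.79 and 5.19 with GSI. Lyz2 read 4.79 and 4.74 with DMSO and 4.93 and 4.83 with GSI. Whether cells of this kind had a part in the Ms4a6d values was not tested, and in bulk RNA more cells of a type and more RNA per cell cannot be told apart.

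Of 9 mast cell and basophil markers, 2 rose, against 2.56% of all genes called higher, and 0 fell (1.56%). Cpa3, a carboxypeptidase gene, rose by 2.80 (limma, adjusted p = 0.0116). Kit, the receptor for stem cell factor, rose by 0.86 (limma, adjusted p = 0.00860). Kit read 4.69 and 4.70 with DMSO on the brighter of its 2 probe sets, just above the olfactory receptor range. On both GSI arrays it read 5.55. The other 7, the protease genes Cma1, Tpsb2, Mcpt4 and Mcpt8 among them, were not called, and the median of the list was 0.02. Ms4a2, the Ms4a gene of these cells, was not called either. Of 7 measured genes of naive T cells 0 were called by limma, with a median of -0.00061. At unadjusted p under 0.05, 1 was higher and 0 lower, against 1960 and 1954 of all 18193 genes. Of 11 T lineage markers limma called 5 higher and 1 lower, against 2.56% and 1.56% of all genes, with a median of 0.11. The largest rises were Cd8a (1.07), Cd8b1 (0.97), Cd247 (0.81) and Cd4 (0.75), and the called fall was Cd3g (-0.47), named after its value was seen. At unadjusted p under 0.05, 5 T lineage markers were higher and 3 lower, against 1960 and 1954 of all 18193 genes. Rag2, also named after its value was seen, fell by more (-0.75) but was not called (limma, adjusted p = 0.0555).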

How the data were processed

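Expression was measured on Affymetrix GeneChip arrays with biotin labelling, per the labels. The deposited values are on the log2 scale, made by the authors with RMA per the submitters' processing notes. Its version and settings were not given in the sources used here. RMA shrinks differences where the signal is dim, and precision is limited by the number of arrays. The table held 45101 probe sets, of which 64 controls were left out. The platform annotation gave 1 symbol for 34945 of the others, several for 932 and none for 9160. A gene was its brightest 1-symbol probe set by mean over the 4 arrays, with symbols updated through gene identifiers to GRCm38.p6, which held 34741 of them.

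The 2 treatments were compared in R 4.3.3 by limma 3.58.1 (lmFit, then eBayes, group as the only term, two-sided), with Benjamini-Hochberg adjustment over 18193 genes and calls at an adjusted p under 0.05. SE is that of this fit, or of the fit over every probe set for probe sets not standing for a gene. SD is over 2 arrays. No dim genes were left out. The script was tested on simulated data.

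Members and lists were chosen with earlier results of these data known. Named were all members and other Ms4a genes, up to 4 called genes per list by size, and the 5 genes nearest to Ms4a6b and to Ms4a4b. Promoters were aligned with Biopython 1.88, global with free end gaps. Alternatives were every probe set, the mean of probe sets, dim genes left out, an intensity trend with robust prior, centred arrays, cyclic loess, a block for the replicate number, and each array left out.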

Additional observations from a re-analysis of the deposited data

How the results depend on the processing

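The limits are 2 arrays per group, low signal for most Ms4a probe sets, and possible binding of related transcripts by some. Over all genes, limma called 899 higher and 685 lower with dim genes left out, 1042 and 899 with an intensity trend and robust prior, and 147 and 70 with the replicate number as a block, against 466 and 284. The titles share replicate numbers, but nothing says what a number stands for. The deviations of the arrays numbered 1 correlated at 0.085, which cannot tell whether same-numbered arrays shared a culture or batch. The block is therefore given only as an alternative. With the block, 1 of the other Ms4a genes and relatives was called higher and 5 genes of the cell type, partner and treatment lists lower, against 2 and 9. Tmem176a and Tnfrsf18 were then not called (limma, adjusted p = 0.0650 and 0.0609), and neither was Ms4a6d among the members. When every probe set was tested, 0 of the other Ms4a genes and relatives were called higher. Of the neighbours, 1 was called lower with dim genes left out and 1 with the trend and robust prior, against 0. With each array left out in turn, 0 to 1 genes were called higher and 0 to 5 lower, 0 of the other Ms4a genes and relatives, and 0 higher and 0 to 2 lower in the cell type, partner and treatment lists. The lone array of a group was then assumed to vary like the other group. Over the 16 probe sets the median difference of the Ms4a members was 0.055, against 0.24 over genes. As the mean of its probe sets, Ms4a4b differed by 0.78 and Ms4a6d by 0.70.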
